A study of Mus musculus with 22 samples.

Results

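Leukocytes and non-immune stroma of mouse tumors were compared here, among the cells in which the osteolineage reporter was not seen. Tumor stroma had been sorted by 2 signals. The first was TdTomato (TdT), a red fluorescent protein (the Ai9 reporter) that is switched on permanently wherever the Osx-cre transgene has acted. The second was CD45, the protein product of *Ptprc*. The TdT-;CD45+ (CD45 single positive) and the TdT-;CD45- (double negative) populations are the subject, with 6 libraries each, 3 from wild type (Osx-cre;Ai9) and 3 from Cdh2-cKO (Cdh2-cKO;Ai9) mice. Members were chosen by the titles of the libraries and make up 12 of the 22 libraries of the series. This choice, and that of the gene lists below, was made with earlier results of these data known. The other 10 are TdT+ populations. Genotype entered every fit as a covariate.

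All mice were C57BL/6 of postnatal day 56 and carried the Ai9 reporter and, by the labels, Osx-cre (wild type) or the conditional deletion of *Cdh2* (Cdh2-cKO). *Cdh2* encodes N-cadherin, a calcium-dependent adhesion molecule of mesenchymal cells. The labels call the tumors orthotopic MMTV-BO1, the design text of the series calls them subcutaneous, and the study describes a GFP-labeled PyMT-BO1 breast cancer line under the skin, from which GFP+ cancer cells were separated before the sort. Tumors had been placed in 6 mice of the Cdh2-cKO and in 4 of the wild type group. Osx-cre is driven by the *Sp7* promoter through a tetracycline-repressed activator, so cells without TdT are those in which the recombinase has left no mark, and in the Cdh2-cKO mice no deletion of *Cdh2* is marked in them. After its first experiments the study used mice fed doxycycline, which represses the transgene, until weaning. Its passage on RNA sequencing does not name the diet. Nothing in the labels says which libraries came from the same mouse, and a p value then measures the spread between these libraries.

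CD45 is a receptor tyrosine phosphatase found on every nucleated cell of the blood lineage. It primes Src family kinases, and so sets the threshold at which antigen and Fc receptors signal. In a carcinoma the CD45+ stroma is usually rich in macrophages and monocytes, with fewer neutrophils, dendritic cells and lymphocytes. CD45- stroma is made of fibroblasts, which build the collagenous matrix, of pericytes and smooth muscle cells around vessels, and of endothelial cells. Red cells and their last precursors carry little or no CD45. In a bulk library fewer cells of a type and less RNA per cell cannot be told apart.

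The 12 libraries held 16594228 to 20350177 counts (median 18514187.5). A level is given below as normalized CPM, the count scaled to a fixed library size with TMM factors, and 3 counts, the smallest signal taken as present, came to between 0.128 and 0.204 normalized CPM. Adjusted p values are Benjamini-Hochberg values of edgeR's quasi-likelihood test over all genes tested, and a gene at or under 0.05 is termed called. Fold changes are log2 of CD45+ over CD45-.

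*Ptprc* (chr1:138063407-138175706, GRCm38, minus strand) was read first as the check of the sort. Its level in the CD45+ libraries was lowest at 490, with a median of 559 and a highest value of 1871 in wild type replicate 2. In the CD45- libraries it was 4.56, 39.4 and 343 in wild type and 9.44, 15.9 and 11 in Cdh2-cKO mice. All CD45+ libraries lay above all CD45- libraries, but the CD45- wild type replicate 3 library reached most of the way to the lowest CD45+ one. The means were 763 ± 543 and 70.6 ± 134 (SD, n = 6 each). The fitted difference, which is not the ratio of these means, was 18.4-fold (log2 4.20, SE 0.95, adjusted p = 0.0036; 5.08 without both). An exact two-sided permutation of log2 values within genotype gave p = 0.005, the smallest that 400 arrangements allow. *Sp7*, the gene whose promoter drives the transgene, had no more than 1 count in any of the 12 libraries and was not tested. *Cdh2* (chr18:16588877-16809246, minus strand) ranged from 0.366 to 2.79 in CD45+ and from 4.6 to 18.7 in CD45- libraries, with no overlap (log2 -3.22, SE 0.50, adjusted p = 0.00033). Its CD45- values were 6.16, 7.61 and 4.6 in wild type and 12.6, 18.7 and 14.5 in Cdh2-cKO mice.

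The 2 libraries named next stood apart. CD45- wild type replicate 3 held leukocyte transcripts. The summed level of 20 pan-leukocyte genes was 14834 in it, against 654 to 2498 in the other 5 CD45- libraries and 25120 to 32715 in the CD45+ libraries. CD45+ wild type replicate 2 held lymphoid transcripts, with a summed level of 15 B cell genes of 6850 against 23.6 to 51.4 in the other 5 CD45+ libraries. Where leaving out both moved a named log2 fold change by more than a factor of 1.5 in fold, the value "without both" follows it, and the counts of a list are given without them where they moved by over that factor. With 1 library left out, the fold change moved by that much for 67 of 213 called genes examined singly without CD45- wild type replicate 3, for 42 without CD45+ wild type replicate 2, and for 2 to 10 without any other library. That of *Ptprc* was 5.4 on the log2 scale without the first, and that of *Ccl5* was 1.73 without the second. Reads of mitochondrial mRNA took 1.95% to 8.83% of the counts in CD45- and 1.16% to 2.08% in CD45+ libraries, and reads on rRNA genes took 1.04% to 5.28% and 0.620% to 1.2%. The Y-linked *Ddx3y* passed 10 CPM of the total counts, without TMM factors, in 4 libraries. These were CD45+ wild type replicates 1 and 2, CD45- wild type replicate 1 and CD45- Cdh2-cKO replicate 2. Without those 4 libraries 29 of 213 called genes looked at singly were no longer called, *Cd74* and *Cdh1* among them. The part of RNA quality in the results below was not tested.

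**Figure D1:**
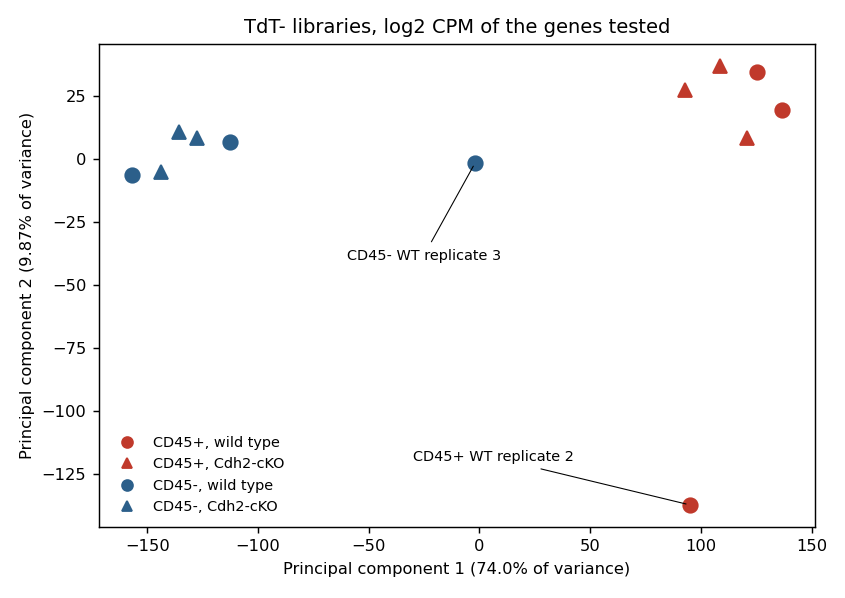
Principal components of log2 CPM of the genes tested, with component 1 (74.0% of the variance) on the horizontal and component 2 (9.87%) on the vertical axis, 1 point per library. CD45+ libraries lie between 92.9 and 136.7 on component 1 and CD45- libraries between -157.1 and -112.5, except CD45- wild type replicate 3 at -2.0, while CD45+ wild type replicate 2 lies alone at -137.2 on component 2.

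The populations differed across much of the transcriptome. Of 41388 genes in the files 14418 passed a filter of more than 1 CPM in at least 2 libraries. Of these 3544 (24.6%) were called higher and 3540 (24.6%) lower in CD45+ cells, and the median log2 fold change of all genes tested was 0.08. The large differences leaned toward CD45- stroma, since 1181 genes (8.19%) were higher and 2139 (14.8%) were lower by at least 2 on the log2 scale. The ranges of the 6 and 6 libraries did not overlap for 1104 genes (7.66%) that were higher and 2227 (15.4%) that were lower. Without the 2 libraries that stood apart, 3893 of 14162 genes (27.5%) were higher and 4635 (32.7%) lower, with a median of -0.05, and by at least 2 on the log2 scale 1313 (9.27%) were higher and 2430 (17.2%) lower. Of the genes called in either fit, 6833 were called in both in the same direction and 0 in opposite directions. Another 251 were called only with all 12 libraries and 1695 only with 10. The 251 include genes that no longer passed the filter with 10 libraries and so were not tested there. These shares are what each count of a gene list below is read against.

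**Figure D2:**
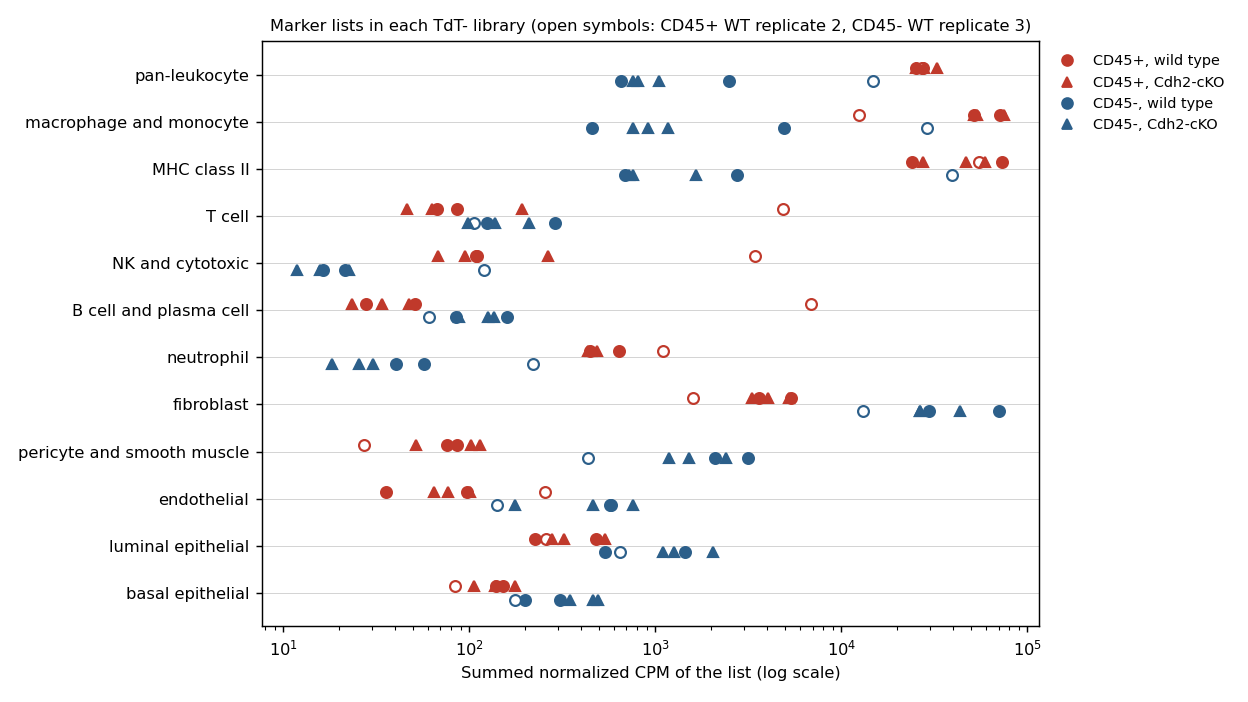
Summed normalized CPM (log scale) of 12 lists of marker genes in each library, CD45+ in red and CD45- in blue, circles for wild type and triangles for Cdh2-cKO, with the 2 libraries that stood apart as open symbols. Among the filled symbols, leukocyte and macrophage sums are far higher in CD45+ libraries and fibroblast and pericyte sums in CD45- libraries. For macrophage genes the open symbols are in the reverse order, at 12388 in CD45+ wild type replicate 2 and 28886 in CD45- wild type replicate 3. The open red symbol lies far above the others for T cell, NK and B cell genes.

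Genes shared by all leukocytes were higher throughout. Of 20 pan-leukocyte genes 19 were tested and all 19 were called higher, with a median log2 fold change of 3.87 (5.08 without the 2 libraries). *Ptprcap* was listed at 0 in all 12 libraries. *Cd53*, a tetraspanin of leukocytes, was 2557, 3371 and 5346 in CD45+ libraries (lowest, median and highest) and 126, 214 and 1488 in CD45- libraries. Its ranges did not overlap, and the highest CD45- value was again that of wild type replicate 3 (log2 3.34, SE 0.64, adjusted p = 0.0014; 4.19 without the 2 libraries). *Laptm5*, a lysosomal membrane protein that lowers antigen receptor levels, was 2401 to 3920 against 24.3 to 2089 (log2 3.68, SE 1.02, adjusted p = 0.011; 4.87 without both). *Srgn*, the proteoglycan core of secretory granules, was 3243 to 8006 against 62.3 to 2137 (log2 4.00, SE 0.98, adjusted p = 0.0055; 5.17 without both). Of the 19 calls 18 held whichever library was left out. The exception was *Fcer1g*, the signaling chain shared by Fc receptors, at 0.0597, 0.0592 and 0.0554 without CD45- Cdh2-cKO replicate 1, 2 or 3 against 0.020 with all libraries.

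Src family kinases, phosphatases and adaptors through which CD45 acts followed the same pattern. All 22 such genes were tested and all 22 were higher (median 3.64, and 19 of 21 without the 2 libraries), and 18 held with each library left out. *Ptpn6*, the phosphatase SHP-1, was 316 to 584 in CD45+ and 3.71 to 284 in CD45- libraries (log2 3.44, SE 0.85, adjusted p = 0.0061; 4.43 without both). *Lyn*, a Src family kinase of myeloid and B cells, was 231 to 340 against 24.2 to 207 (log2 2.33, SE 0.48, adjusted p = 0.0021; 3.03 without both). Neither gene overlapped between the populations. *Dok2*, an adaptor that restrains tyrosine kinases, was 353 to 1063 against 5.12 to 517 and did overlap (log2 3.92, SE 1.21, adjusted p = 0.018, with 0.0531 and 0.0545 without CD45- Cdh2-cKO replicates 1 and 2; 5.5 without both).

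Transcription factors divided by lineage. Of 24 hematopoietic factors 21 were tested, 19 were higher and 2 lower (median 2.88). *Irf8*, which drives monocyte and dendritic cell development, was 84.2 to 141 against 11.1 to 51.6 (log2 2.60, SE 0.34, adjusted p = 0.00011). *Fli1*, an ETS factor of blood and endothelial cells, was 138 to 288 against 7.04 to 104 (log2 2.88, SE 0.48, adjusted p = 0.00057). The 2 lower members also work outside blood. *Runx1* was 51.6 to 59.2 in CD45+ and 56.4 to 134 in CD45- libraries (log2 -0.63, SE 0.21, adjusted p = 0.026), and *Gata3*, used by T cells and mammary epithelium, was 2.28 to 41.8 against 22.1 to 48.5 (log2 -1.90, SE 0.70, adjusted p = 0.040; -3.2 without both). Neither of those calls held throughout. The adjusted p of *Runx1* was 0.0604 without CD45- wild type replicate 1, 0.0582 without CD45- Cdh2-cKO replicate 3, and 0.0520 and 0.0525 without CD45+ Cdh2-cKO replicates 1 and 3. That of *Gata3* was between 0.0576 and 0.0941 in 9 of the 12 omissions, all but those of CD45+ wild type replicate 2 and CD45- wild type replicates 1 and 3.

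Promoters are shown for the myeloid factor PU.1 because its gene, *Spi1*, was higher in the same cells. *Spi1* was 14.8, 30.4 and 64.4 in CD45+ and 0.213, 0.949 and 17.7 in CD45- libraries (log2 3.75, SE 0.94, adjusted p = 0.0064; 4.97 without both). Only CD45- wild type replicate 3 reached into the CD45+ range. The letters GAGGAAGT, or ACTTCCTC on the other strand, were searched in RefSeq promoters (GRCm38.p6, 250 bases before to 50 after the gene start). They stood in 153 of 2751 promoters of genes called higher (5.56%), 49 of 2591 called lower (1.89%) and 162 of 5345 not called (3.03%). Among genes higher by at least 2 on the log2 scale the share was 10.5% (90 of 860), and among those lower by as much it was 1.46% (22 of 1504). Over all 27025 promoters it was 3.28%. The AP-1 letters TGANTCA, searched on both strands in the same way, stood in 5.63% of promoters of higher genes, 6.83% of lower genes and 4.47% of genes not called. Among genes higher or lower by at least 2 on the log2 scale the order was the other way, with 8.95% and 7.91%. The share was 5.34% over all genes tested, against 3.41% for the PU.1 letters, and 7.93% over all promoters. A match is only a run of letters, and the shares carry no test.

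The 4 promoters below belong to the genes with the highest mean level among named genes that were called higher without overlap and hold the PU.1 letters. Of them *Inpp5d*, *Cd37* and *Vav1*, like *Spi1*, were named after their values were seen. Each sequence runs 5′ to 3′ on the strand of the gene, with the matched letters in capitals.
*Cd53* (chr3:106790100-106790399, minus strand, match at base 6 from the start of the gene): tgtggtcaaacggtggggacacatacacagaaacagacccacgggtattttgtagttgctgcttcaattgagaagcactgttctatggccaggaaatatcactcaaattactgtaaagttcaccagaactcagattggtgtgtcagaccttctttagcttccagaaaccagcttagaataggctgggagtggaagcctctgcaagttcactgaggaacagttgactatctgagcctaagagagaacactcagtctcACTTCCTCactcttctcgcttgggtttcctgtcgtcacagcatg
*Inpp5d* (chr1:87620062-87620361, plus strand, match at base -20): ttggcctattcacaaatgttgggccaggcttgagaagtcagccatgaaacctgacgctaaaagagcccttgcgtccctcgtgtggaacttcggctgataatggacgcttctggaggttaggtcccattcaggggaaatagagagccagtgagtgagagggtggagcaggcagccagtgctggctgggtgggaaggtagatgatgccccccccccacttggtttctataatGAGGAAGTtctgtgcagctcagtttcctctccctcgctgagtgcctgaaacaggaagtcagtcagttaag
*Cd37* (chr7:45238790-45239089, minus strand, match at base -25): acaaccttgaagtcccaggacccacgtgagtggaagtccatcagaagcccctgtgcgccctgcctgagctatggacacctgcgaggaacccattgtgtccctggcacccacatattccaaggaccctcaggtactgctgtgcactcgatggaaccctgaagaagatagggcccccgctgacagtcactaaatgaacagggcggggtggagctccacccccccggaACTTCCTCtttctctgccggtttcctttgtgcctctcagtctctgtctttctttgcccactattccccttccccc
*Vav1* (chr17:57278850-57279149, plus strand, match at base -11): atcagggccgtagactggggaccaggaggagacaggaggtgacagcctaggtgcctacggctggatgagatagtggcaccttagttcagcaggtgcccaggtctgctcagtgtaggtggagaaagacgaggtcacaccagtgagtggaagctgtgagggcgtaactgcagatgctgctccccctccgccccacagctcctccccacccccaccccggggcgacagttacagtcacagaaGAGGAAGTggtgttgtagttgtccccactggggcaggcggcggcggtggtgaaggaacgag

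*Inpp5d* encodes SHIP1, a lipid phosphatase that dampens receptor signaling, *Cd37* a leukocyte tetraspanin and *Vav1* a guanine nucleotide exchange factor downstream of antigen receptors. *Inpp5d* was 177 to 222 in CD45+ and 3.05 to 112 in CD45- libraries (log2 3.67, SE 0.82, adjusted p = 0.0034; 4.75 without both). *Vav1* was 81.8 to 110 against 1.69 to 58.1 (log2 3.55, SE 0.82, adjusted p = 0.0041; 4.64 without both). The CD45+ libraries were tight for both genes, and CD45- wild type replicate 3 was again the highest of its group. *Cd37* was 81.1 to 105 in 5 CD45+ libraries and 628 in wild type replicate 2, against 0.799 to 60.2 in CD45- libraries (log2 4.33, SE 0.90, adjusted p = 0.0023). Its 3′ end shares 4 bases with the 3′ end of *Tead2* on the other strand, at the other end of the gene from the promoter shown.

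Macrophage and monocyte genes were higher as a group. Of 25 such genes 24 were tested, 22 were higher and 0 lower (median 3.90), and all 24 were higher without the 2 libraries (median 5.26). *Lyz2*, the lysozyme of myeloid cells, was 3470, 21517 and 37506 in CD45+ and 129, 394 and 10774 in CD45- libraries. The lowest CD45+ value was that of wild type replicate 2 and the highest CD45- value that of wild type replicate 3, so that the groups overlapped (log2 4.17, SE 1.23, adjusted p = 0.015; 5.49 without the 2 libraries). *Cd14*, the co-receptor for lipopolysaccharide, was 1123 to 7294 against 56.7 to 1212 (log2 4.02, SE 0.86, adjusted p = 0.0027; 5.2 without both). *Apoe*, a lipid carrier made by tissue macrophages, was 430 to 6342 against 26.9 to 1120 (log2 4.31, SE 1.03, adjusted p = 0.0049; 5.57 without both). *C1qb*, a chain of the first complement component, was 1381 to 9316 against 44.3 to 4038 (log2 3.93, SE 1.21, adjusted p = 0.018; 5.32 without both). Of the 22 calls 10 held with each library left out, and the fewest held without CD45- Cdh2-cKO replicate 1 or 2, where *C1qb* was at 0.0522 and 0.0531.

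Receptors that macrophages use to find opsonized or microbial targets were higher with them. Of 14 tested Fc and complement receptors 13 were higher (median 3.62), 6 of them with each library left out, with the fewest without CD45- Cdh2-cKO replicate 1. *Fcgr2b*, the inhibitory Fc receptor, was 659 to 2647 against 34.3 to 1267 (log2 3.04, SE 0.91, adjusted p = 0.016; 4.28 without both). *Fcgr3*, its activating counterpart, was 1134 to 3547 against 22.5 to 2059 (log2 3.60, SE 1.16, adjusted p = 0.023; 5.04 without both), and was at 0.0655, 0.0668 and 0.0634 without CD45- Cdh2-cKO replicate 1, 2 or 3. Of 21 pattern recognition genes 19 were higher (median 3.19) and 16 of these held with each library left out, while 19 were higher and 1 lower without both. *Clec7a*, which encodes the beta-glucan receptor Dectin-1, was 382, 651 and 906 in CD45+ and 5.03, 14.6 and 279 in CD45- libraries, with no overlap (log2 4.22, SE 1.0, adjusted p = 0.0048; 5.56 without both). *Clec4e*, encoding the lectin Mincle, was 98.3 to 329 against 1.17 to 72.8, also without overlap (log2 4.32, SE 1.06, adjusted p = 0.0058; 5.55 without both). *Tlr2*, the receptor for bacterial lipoproteins, was 61.7 to 348 against 7.36 to 147 and overlapped through the same 2 libraries (log2 3.37, SE 0.85, adjusted p = 0.0065; 4.61 without both).

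Lysosomal genes were higher by a smaller margin. Of 26 genes 22 were higher and 2 lower (median 1.42). *Ctsd*, the aspartic protease cathepsin D, was 2098 to 4742 in CD45+ and 712 to 2514 in CD45- libraries (log2 1.39, SE 0.33, adjusted p = 0.0048). *Ctsc*, which activates granule proteases, was 2167 to 4506 against 169 to 3189 (log2 2.73, SE 0.70, adjusted p = 0.0075; 3.71 without both). *Ctsb* was 4085 to 13062 against 2595 to 7782 (log2 1.1, SE 0.36, adjusted p = 0.024) and was at 0.0658, 0.0656 and 0.0524 without CD45- Cdh2-cKO replicate 1, 2 or 3. The 2 lower members were *Ctsk*, the collagen-degrading cathepsin K, and *Gaa*, the lysosomal glucosidase. *Ctsk* was 20.1 to 186 in CD45+ and 205 to 741 in CD45- libraries, with no overlap (log2 -1.95, SE 0.49, adjusted p = 0.0066). *Gaa* was 32.7 to 53.6 against 45.7 to 110 (log2 -0.78, SE 0.22, adjusted p = 0.012).

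Antigen presentation differed in degree between its 2 arms. All 11 genes of MHC class II presentation were higher (median 3.69, and 5.06 without the 2 libraries), 7 of them with each library left out and with the fewest without CD45- Cdh2-cKO replicate 2. *H2-Ab1*, the beta chain of I-A, was 885, 1950 and 3942 in CD45+ and 38.5, 70.7 and 1568 in CD45- libraries (log2 3.55, SE 0.97, adjusted p = 0.010; 4.97 without both). *Cd74*, the invariant chain, was 10710 to 48943 against 435 to 25785 (log2 3.53, SE 1.12, adjusted p = 0.021; 5.06 without both). In both genes the CD45- range without wild type replicate 3 ended far lower, for *Cd74* at 1540. *Cd74* was at 0.0566, 0.0567 and 0.0554 without CD45- Cdh2-cKO replicate 1, 2 or 3. Of 15 class I genes 12 were higher and 0 lower, with a median of 1.33 (0.99 and 11 of 15 without the 2 libraries). *H2-D1*, a class I heavy chain, was 1216 to 2152 against 415 to 1216 (log2 1.32, SE 0.24, adjusted p = 0.0010), and *B2m*, its light chain, was 3705 to 6770 against 1085 to 3792 (log2 1.33, SE 0.31, adjusted p = 0.0045). Reads of the closely related H2 heavy chain genes may be shared out unevenly between them.

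Interferon-stimulated genes did not move as 1 group. Of 23 genes 11 were higher, 1 lower and 11 not called (median 0.70). *Irf7*, the interferon master regulator, was 61.3 to 182 against 32.9 to 75 (log2 0.84, SE 0.23, adjusted p = 0.0093). *Bst2*, encoding tetherin, was 83.0 to 164 against 54.6 to 119 (log2 0.70, SE 0.23, adjusted p = 0.023), at 0.0610 and 0.0625 without CD45- Cdh2-cKO replicates 2 and 3.

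Adhesion molecules of leukocytes were mostly higher. Of 11 tested leukocyte integrins and selectin ligands 9 were higher (median 3.91), and 6 did not overlap between the populations. *Itgb2*, the beta2 chain of leukocyte integrins, was 787, 977 and 1303 in CD45+ and 11.4, 31.8 and 619 in CD45- libraries, with no overlap (log2 3.65, SE 0.94, adjusted p = 0.0076; 4.83 without both). *Itgam*, its partner CD11b, was 343 to 880 against 4.37 to 351 (log2 4.18, SE 1.07, adjusted p = 0.0072; 5.63 without both). *Cd44*, the hyaluronan receptor, was 533 to 1052 against 635 to 1172 and was not called (log2 -0.21, SE 0.18, adjusted p = 0.37).

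Lymphocyte genes were called higher, at levels that were far above the rest in CD45+ wild type replicate 2 and low in the other 5 CD45+ libraries. Of 20 T cell genes 15 were higher and 1 lower (median 4.42), and without the 2 libraries 14 were higher and 2 lower (median 2.66). With 1 library left out, the fewest T cell genes called higher were 9, without CD45+ wild type replicate 2 or CD45+ Cdh2-cKO replicate 1. *Cd3e*, a chain of the T cell receptor complex, was 1.63 to 15.3 in 5 CD45+ libraries and 529 in wild type replicate 2, against 0.188 to 0.808 in 5 CD45- libraries and 5.77 in wild type replicate 3. With all libraries the log2 fold change was 5.06 (SE 1.47, adjusted p = 0.014) and without the 2 libraries 3.49 (adjusted p = 0.00042). *Cd2*, an adhesion molecule of T and NK cells, was 16.4 to 32.6 and 471 against 0.282 to 15.5, with no overlap (log2 4.88, SE 1.02, adjusted p = 0.0023). *Thy1*, found on T cells and on fibroblasts and pericytes alike, went the other way, with 1.22 to 5.82 in 5 CD45+ libraries and 54.0 in wild type replicate 2, against 33.5 to 271 in CD45- libraries (log2 -4.01, SE 1.02, adjusted p = 0.0070; -5.94 without both). The summed T cell list, which holds *Thy1*, was 98.5 to 290 in CD45- libraries and 46.4 to 192 in the 5 CD45+ libraries other than wild type replicate 2. *Trac*, the constant segment of the T cell receptor alpha chain, was not called (log2 3.09, SE 1.26, adjusted p = 0.060; 0.88 without both).

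Cytotoxic and B cell genes showed the same library. Of 13 tested NK and cytotoxic genes all 13 were higher (median 4.56), and 10 of 11 without the 2 libraries. *Gzmb*, granzyme B, was 4.89 to 29.3 in 5 CD45+ libraries and 476 in wild type replicate 2, against 0.235 to 11.9 in CD45- libraries (log2 4.20, SE 1.21, adjusted p = 0.013; 3.11 without the 2 libraries). *Ccl5*, a chemokine of activated T and NK cells, was 35.6 to 77.8 and 888 against 4.58 to 59.5 (log2 3.08, SE 0.85, adjusted p = 0.011; 2.33 without both). Of 15 B cell genes 7 were tested and 5 were higher, 3 of them without CD45- wild type replicate 1, 2 or 3. Without both libraries that stood apart 4 were higher and 1 lower. *Cd79b*, of the B cell receptor, was 7.04 to 13.7 and 999.7 against 0.344 to 7.79 (log2 5.49, SE 1.34, adjusted p = 0.0056; 3.49 without the 2 libraries). *Ebf1*, a factor of early B cells and of fibroblasts and adipocyte precursors, was 0.488 to 2.21 in 5 CD45+ libraries and 217 in wild type replicate 2, against 32.8 to 147 in CD45- libraries. It was not called with all libraries (log2 -3.02, SE 1.78, adjusted p = 0.18) and was lower without the 2 libraries (log2 -6.33, adjusted p = 6.2e-07).

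Other blood lineages were less even. Of 10 tested neutrophil genes 9 were higher and 1, *Lcn2*, lower. The call of *Lcn2*, lipocalin-2 of neutrophil granules, ended in 5 of the 12 omissions (log2 -1.67, SE 0.55, adjusted p = 0.024, and 0.0756 without CD45- wild type replicate 1). *Mmp8*, neutrophil collagenase, was 29.0 to 55.6 against 0.738 to 16.6, with no overlap (log2 3.91, SE 0.70, adjusted p = 0.00092; 4.82 without both), and *Trem1*, an activating receptor of neutrophils and monocytes, was 138 to 460 against 2.87 to 145 (log2 4.15, SE 1.0, adjusted p = 0.0052; 5.48 without both). The granule genes *Camp*, *Elane*, *Mpo* and *Ngp* and the neutrophil surface gene *Ly6g* did not pass the filter. Of 15 dendritic cell genes 11 were higher and 1 lower. Only 7 were higher without CD45- Cdh2-cKO replicate 1, 2 or 3, and without both libraries that stood apart 10 of 13 were higher and 2 lower. *Itgax*, CD11c, was 48.6 to 193 against 1.17 to 45.3 (log2 3.99, SE 0.91, adjusted p = 0.0038; 5.4 without both). *Fscn1*, an actin bundler of mature dendritic cells that fibroblasts also make, was lower at 2.67 to 7.62 against 15 to 51.7 (log2 -2.80, SE 0.34, adjusted p = 7.4e-05). Of 9 tested mast cell and basophil genes 0 were higher and 2 lower. *Gata2*, also an endothelial factor, was 0.383 to 2.18 against 3.25 to 11.3 (log2 -2.91, SE 0.43, adjusted p = 0.00026). The other was *Mcpt8*, mast cell protease 8 by name only, at no more than 1.04 in CD45+ libraries (adjusted p = 0.00087). Its log2 fold change lay between -6.57 and -4.91 with 1 library left out, and the call held each time. Of 7 tested red cell and platelet genes 5 were lower in CD45+ cells and 2, *Pf4* and *Ppbp*, were higher. Without CD45- Cdh2-cKO replicate 1, 2 or 3 only 1 was higher. The lower ones included globin and heme genes. *Hba-a1*, a hemoglobin alpha gene with a near copy in the genome, was 0.504 to 3.84 in CD45+ and 0.329 to 675 in CD45- libraries (log2 -6.18, SE 1.41, adjusted p = 0.0039). *Alas2*, the first enzyme of heme synthesis in red cells, was 0.183 to 1.89 against 0.329 to 168 (log2 -6.22, SE 1.32, adjusted p = 0.0026). CD45- wild type replicate 1 was at the low end for both and CD45- wild type replicate 2 at the high end. Without CD45- wild type replicate 2 the adjusted p of *Hba-a1* was 0.0444, and that of the globin gene *Hbb-bs* was 0.0671 against 0.0048 with all libraries.

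Checkpoint genes were measured on both sides of the contact. Of 13 tested receptors of T cell costimulation and inhibition 11 were higher (median 4.06, and 9 of 11 with 2 lower without the 2 libraries), and 7 were higher without CD45+ wild type replicate 2. *Icos* was 4.56 to 18.7 and, in wild type replicate 2, 219, against 0.148 to 4.99 (log2 4.62, SE 1.1, adjusted p = 0.0049; 3.67 without both). *Pdcd1*, the gene of PD-1, was 0.586 to 5.88 and 85.5 against 0.047 to 3.25 (log2 4.11, SE 1.2, adjusted p = 0.014; 3.91 without both), and *Ctla4* was 0.326 to 7.61 and 127 against 0.047 to 3.64 (log2 4.22, SE 1.32, adjusted p = 0.019; 3.62 without both). Without CD45+ wild type replicate 2 the adjusted p of *Pdcd1* was 0.0526 and that of *Ctla4* 0.0711, and *Ctla4* was at 0.0590 without CD45+ Cdh2-cKO replicate 1. Of 14 tested ligands 9 were higher and 2 lower (median 1.62). *Cd274*, PD-L1, was 38.6, 62.6 and 190 in CD45+ and 4.75, 7.34 and 34.4 in CD45- libraries, with no overlap (log2 3.14, SE 0.56, adjusted p = 0.00091). *Vsir*, VISTA, was 172 to 299 against 10.5 to 142 (log2 2.77, SE 0.54, adjusted p = 0.0016; 3.44 without both), and *Cd86*, which engages CD28 and CTLA-4, was 201 to 650 against 2.73 to 192 (log2 4.12, SE 1.1, adjusted p = 0.0089; 5.51 without both). *Lgals9*, galectin-9, was 401 to 702 against 111 to 410 and overlapped only through CD45- wild type replicate 3 (log2 1.51, SE 0.27, adjusted p = 0.00087). *Nectin2*, an adhesion molecule bound by TIGIT, was lower at 2.35 to 3.67 against 6.44 to 22.6 (log2 -2.07, SE 0.31, adjusted p = 0.00028).

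**Figure D3:**
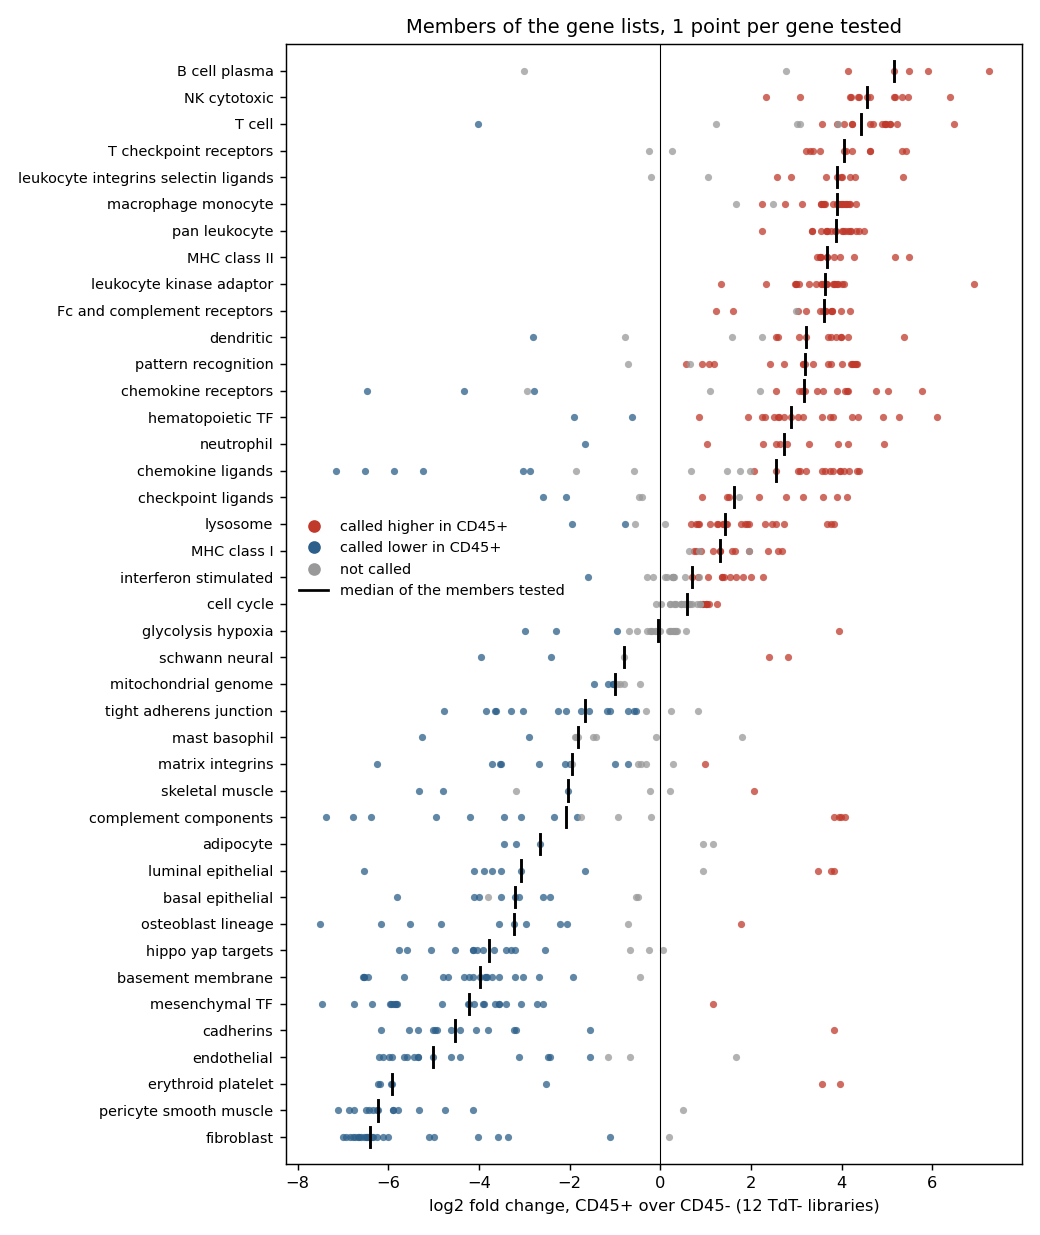
Log2 fold change of CD45+ over CD45- for each tested member of 41 gene lists, ordered by the median of the list (black bar), with genes called higher in red, lower in blue and not called in gray. The pan-leukocyte list centers at 3.87 and the fibroblast list at -6.41, while the glycolysis list centers at -0.05.

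The matrix-building genes of fibroblasts moved in the opposite direction. Of 25 fibroblast genes 24 were tested and 23 were lower in CD45+ cells (median -6.41), and all 23 held with each library left out. *Col1a1*, the alpha1 chain of type I collagen, was 26.3, 44.8 and 69.5 in CD45+ and 1240, 2931 and 10236 in CD45- libraries. There was no overlap, and CD45- wild type replicate 3 was the lowest of its group (log2 -6.53, SE 0.58, adjusted p = 1.4e-05). *Sparc*, a collagen-binding matricellular protein, was 74.0 to 247 against 3368 to 21713 (log2 -6.36, SE 0.54, adjusted p = 1.3e-05), and *Col3a1* was 18.0 to 51.4 against 1007 to 8500 (log2 -6.47, SE 0.61, adjusted p = 1.8e-05). The 1 exception was *Fn1*, fibronectin, a matrix protein that macrophages also make. It was 1038 to 4945 in CD45+ and 2391 to 3385 in CD45- libraries and was not called (log2 0.20, SE 0.32, adjusted p = 0.64). *Pdpn*, also on the list, was listed at 0 in all 12 libraries.

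Vessel-wall genes followed the fibroblast genes. Of 15 pericyte and smooth muscle genes 14 were lower (median -6.23), all of them with each library left out. *Acta2*, smooth muscle actin, was 4.94, 7.38 and 10.9 in CD45+ and 152, 721 and 1155 in CD45- libraries (log2 -6.50, SE 0.51, adjusted p = 1.1e-05). *Rgs5*, a G protein regulator of pericytes, was 1.16 to 6.64 against 61.9 to 474 (log2 -6.43, SE 0.70, adjusted p = 3.3e-05). *Cspg4*, the pericyte proteoglycan NG2, was not called (log2 0.51, SE 0.67, adjusted p = 0.56), at 28.3 to 84.1 in 5 CD45+ libraries, 0.765 in wild type replicate 2 and 21.5 to 57.2 in CD45- libraries. Of 19 tested endothelial genes 16 were lower (median -5.01), and 17 were lower and 1 higher without both. *Esam*, an adhesion molecule of endothelial junctions, was 0.366 to 2.02 against 12.3 to 116 (log2 -6.12, SE 0.63, adjusted p = 2.7e-05), and *Emcn*, endomucin, was 0.183 to 1.82 against 5.94 to 78.8 (log2 -5.92, SE 0.74, adjusted p = 8.5e-05). *Pecam1*, which endothelium shares with leukocytes, was 5.97 to 16.3 in 5 CD45+ libraries and 220 in wild type replicate 2, against 21.1 to 167. It was not called with all libraries (log2 -1.15, SE 0.99, adjusted p = 0.36) and was lower without the 2 libraries (log2 -3.0, adjusted p = 4.9e-05).

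Sheet-like and interstitial matrix went together. Of 21 tested basement membrane genes 20 were lower (median -3.98), 18 of them with each library left out. *Nid1*, which links laminin to type IV collagen, was 1.53, 3.22 and 6.36 against 102, 280 and 610, with no overlap (log2 -6.53, SE 0.53, adjusted p = 1.3e-05). *Col4a1* was 3.36 to 9.25 against 52.4 to 535 (log2 -5.65, SE 0.56, adjusted p = 2.2e-05). *Lamb1*, a laminin chain, was 6.41 to 58.3 against 107 to 489 (log2 -3.98, SE 0.53, adjusted p = 0.00012). *Nid2*, the second nidogen, was the exception at 1.0 to 29.1 against 6.69 to 40.6 (log2 -0.46, SE 0.59, adjusted p = 0.55). Integrins that bind matrix were less uniform, with 9 of 15 tested lower and 1, *Itga9*, higher (log2 0.98, SE 0.29, adjusted p = 0.014). *Itga5*, the fibronectin receptor chain, was 43.1 to 153 against 106 to 296 (log2 -1.01, SE 0.31, adjusted p = 0.018).

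Cadherins, adherens junction genes and targets of the Hippo pathway were lower as well. Of 14 tested cadherins 13 were lower and 1, *Cdh1*, was higher. *Cdh11*, the cadherin of fibroblasts and osteoblasts, was 0.427, 1.01 and 1.96 in CD45+ and 25.9, 51.0 and 187 in CD45- libraries (log2 -6.16, SE 0.63, adjusted p = 2.4e-05). *Cdh13*, a cadherin anchored in the membrane by a lipid, was 0.855 to 8.43 against 59.2 to 390 (log2 -5.54, SE 0.56, adjusted p = 2.4e-05), and *Cdh5*, of endothelial junctions, was 0.824 to 1.97 against 3.64 to 46.2 (log2 -4.42, SE 0.64, adjusted p = 0.00022). *Cdh1*, E-cadherin, was 316, 122 and 86.6 in wild type and 214, 255 and 134 in Cdh2-cKO CD45+ libraries, against 1.97 to 5.53 in 5 CD45- libraries and 119 in CD45- wild type replicate 3 (log2 3.82, SE 1.11, adjusted p = 0.014; 5.63 without the 2 libraries). Of 18 tested junction genes 15 were lower (median -1.66, and 15 lower with 1 higher without both), among them *Ctnna1*, alpha-catenin, at 136 to 244 against 264 to 557 (log2 -1.19, SE 0.17, adjusted p = 0.00023). Of 16 genes of the Hippo pathway and its targets 13 were lower, and all 13 held with each library left out. *Ccn1*, a secreted matricellular target of YAP, was 3.66 to 18.4 against 260 to 702 (log2 -5.59, SE 0.41, adjusted p = 1.1e-05), and *Wwtr1*, which encodes the co-activator TAZ, was 1.77 to 16.2 against 26.5 to 112 (log2 -3.66, SE 0.48, adjusted p = 0.00011).

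Mesenchymal transcription factors mirrored the hematopoietic ones. Of 23 tested 22 were lower (median -4.23), all with each library left out, and 1, *Zeb2*, was higher. *Prrx1*, a homeobox factor of limb and skin mesenchyme, was 0.305, 1.01 and 2.02 in CD45+ and 40.7, 77.7 and 232 in CD45- libraries (log2 -6.77, SE 0.59, adjusted p = 1.4e-05). *Sox9*, a chondrocyte and epithelial factor, was 5.19 to 77.3 against 92.6 to 452 (log2 -3.41, SE 0.57, adjusted p = 0.00057). *Zeb1* and *Zeb2*, repressors of *Cdh1* in epithelial-mesenchymal transition, differed in direction. *Zeb1* was 6.64 to 11.4 in 5 CD45+ libraries and 73.5 in wild type replicate 2, against 46.1 to 116 (log2 -2.60, SE 0.63, adjusted p = 0.0056; -3.74 without both). *Zeb2*, also a factor of macrophage identity, was 97.4 to 179 against 35 to 120 (log2 1.17, SE 0.32, adjusted p = 0.0097). Of 11 tested osteoblast lineage genes 9 were lower. *Dmp1*, a phosphoprotein of mineralizing matrix, was 0 to 3.60 against 3.62 to 50.4 (log2 -4.83, SE 0.67, adjusted p = 0.00016). *Spp1*, osteopontin, which macrophages secrete too, was higher at 5082 to 58108 against 5410 to 7903 (log2 1.78, SE 0.49, adjusted p = 0.010).

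**Figure D4:**
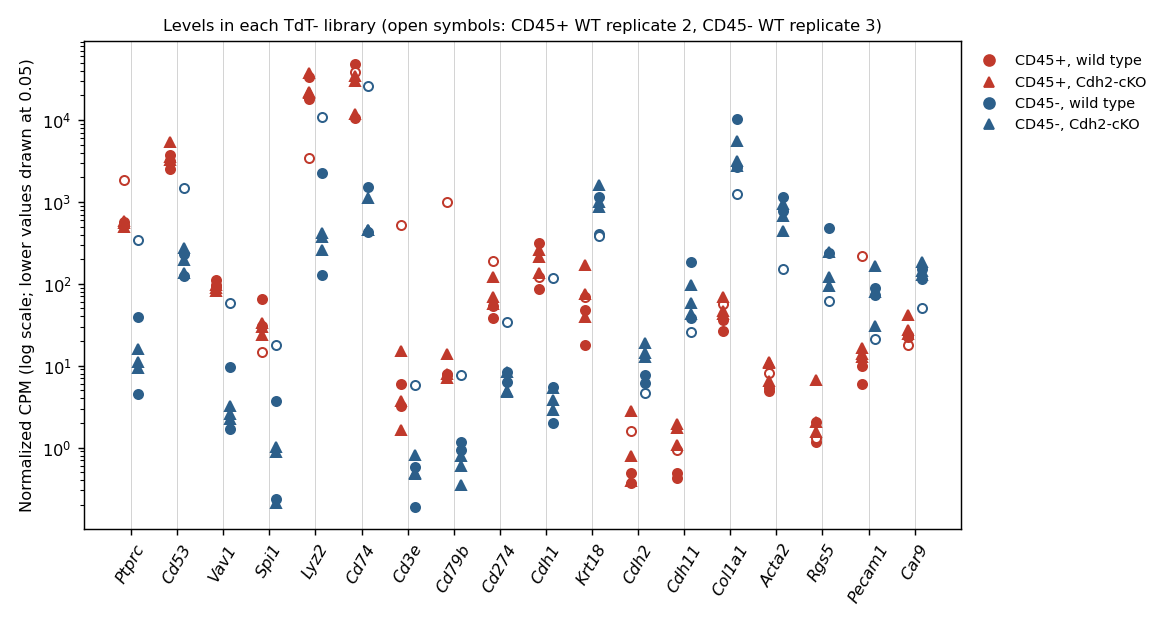
Normalized CPM (log scale) of 18 genes in each library, CD45+ in red and CD45- in blue, circles for wild type and triangles for Cdh2-cKO, with the 2 libraries that stood apart as open symbols. The lymphocyte genes Cd3e and Cd79b are high in 1 CD45+ library, at 529 and 999.7, and the leukocyte genes of the CD45- wild type replicate 3 library lie close to the CD45+ range.

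Complement genes were found on both sides. Of 16 tested components 4 were higher and 9 lower. The 3 chains of C1q and properdin were the higher ones. *Cfp*, properdin, was 342 to 1209 in CD45+ and 9.54 to 606 in CD45- libraries (log2 3.84, SE 1.07, adjusted p = 0.011; 5.21 without both), and *C1qa* was 139 to 1356 against 5.92 to 470 (log2 3.98, SE 1.16, adjusted p = 0.014; 5.34 without both). Of the proteases that C1q carries and of their inhibitor the opposite held. *C1s1*, a C1 protease with a close copy in the mouse genome, was 0.456 to 2.88 against 39.8 to 177 (log2 -6.39, SE 0.56, adjusted p = 1.4e-05; -7.11 without both). *Serping1*, the C1 inhibitor, was 2.69, 6.07 and 19.7 against 265, 745 and 1772, with no overlap (log2 -6.78, SE 0.66, adjusted p = 2.0e-05; -7.57 without both). *C3*, the central component, was 7.88 to 39.2 in 5 CD45+ libraries and 162 in wild type replicate 2, against 132 to 1008 (log2 -3.07, SE 0.72, adjusted p = 0.0046; -4.16 without both).

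Epithelial genes were divided. Of 11 tested luminal genes 7 were lower and 3 higher, and of 20 listed 9 did not pass the filter. *Krt18* was 17.7, 58.5 and 171 in CD45+ and 379, 924 and 1593 in CD45- libraries, without overlap (log2 -3.71, SE 0.48, adjusted p = 0.00011), and its partner keratin *Krt8* was 4.33 to 49.8 against 93.2 to 419 (log2 -3.51, SE 0.48, adjusted p = 0.00014). The higher members were *Cdh1*, *Spint1* and *Epcam*. *Spint1*, an inhibitor of membrane serine proteases, was 20.5 to 129 against 0.680 to 30.9 (log2 3.76, SE 0.86, adjusted p = 0.0038; 4.77 without both). *Epcam*, an epithelial adhesion molecule also found on some dendritic cells, was low throughout, at 0.782 to 6.04 against 0 to 2.07 (log2 3.47, SE 1.16, adjusted p = 0.027; 6.14 without both). Its adjusted p was 0.0598 without CD45+ wild type replicate 1 and 0.0586, 0.0622 and 0.0602 without CD45- Cdh2-cKO replicates 1 to 3. Of 11 tested basal genes 8 were lower. Only 5 were lower without CD45- wild type replicate 2, any of the CD45+ Cdh2-cKO replicates or CD45- Cdh2-cKO replicate 3. Among the 8 was *Itgb4*, the hemidesmosome integrin, at 1.83 to 13.8 against 20.3 to 73.6 (log2 -3.51, SE 0.45, adjusted p = 9.4e-05). The cells that carried these keratins were not identified.

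Fat, muscle and nerve genes were few. Of 5 tested adipocyte genes 3 were lower and 0 higher. *Fabp4*, a lipid carrier of adipocytes and capillary endothelium, was 1.81 to 13.2 against 6.78 to 88.8 (log2 -2.65, SE 0.71, adjusted p = 0.0092). Of 7 tested skeletal muscle genes 3 were lower and 1 higher, and *Des*, desmin, was 0 to 0.521 against 2.41 to 9.75 (log2 -5.32, SE 0.75, adjusted p = 0.00018). Of 5 tested Schwann cell and neural genes 2 were lower and 2 higher. *Ncam1*, a neural and mesenchymal adhesion molecule, was 2.26 to 22.9 against 50.2 to 194 (log2 -3.96, SE 0.59, adjusted p = 0.00025; -4.65 without both), whereas *Mbp*, whose gene also encodes the golli proteins of leukocytes, was 16.5 to 48.9 against 1.13 to 12.2 (log2 2.83, SE 0.45, adjusted p = 0.00044).

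Chemokines and their receptors were spread over both populations. Of 27 tested ligands 15 were higher and 6 lower, and the fewest higher with 1 library left out were 8, without CD45- Cdh2-cKO replicate 1. *Ccl6*, a myeloid chemokine, was 1738 to 6299 in CD45+ and 27.7 to 1760 in CD45- libraries (log2 4.33, SE 1.22, adjusted p = 0.012; 5.67 without both). *Ccl2*, the ligand that recruits monocytes, was 600 to 4637 against 189 to 2270 (log2 2.08, SE 0.68, adjusted p = 0.024; 2.79 without both), and was at 0.0863, 0.0591 and 0.0639 without CD45+ wild type replicate 3 or CD45- Cdh2-cKO replicate 1 or 2. *Cxcl13*, which attracts B cells, was lower at 0.061 to 3.18 against 34.7 to 278 (log2 -7.16, SE 0.81, adjusted p = 4.2e-05; -8.3 without both). Of 20 tested receptors 14 were higher and 3 lower. *Ccr1* was 558 to 1496 against 6.53 to 731 (log2 4.07, SE 1.22, adjusted p = 0.016; 5.6 without both). The 3 lower receptors were *Ackr1*, *Ackr2* and *Ackr3*, atypical receptors that bind chemokines without classical G protein signaling. *Ackr4*, of the same family, was not called with all libraries (log2 -2.94, SE 1.21, adjusted p = 0.063) and was lower without both (log2 -3.45, adjusted p = 0.037). *Ackr3* was 18.0 to 49.0 against 110 to 261, with no overlap (log2 -2.80, SE 0.30, adjusted p = 3.4e-05).

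Ligands and receptors were then read in pairs, 39 in all. In 4 pairs the ligand was lower and the receptor higher in CD45+ cells. These were the 2 ligands of the macrophage growth factor receptor, *Csf1* and *Il34*, with *Csf1r*, then *Cxcl12* with *Cxcr4* and *Cx3cl1* with *Cx3cr1*. *Csf1r* was 294, 944 and 1253 in CD45+ and 16.3, 30.4 and 510 in CD45- libraries (log2 3.61, SE 0.86, adjusted p = 0.0051; 4.77 without both). *Csf1* was 16.5 to 57.1 against 51.2 to 144 (log2 -1.88, SE 0.30, adjusted p = 0.00043) and *Il34* 0.794 to 14.6 against 34.9 to 131 (log2 -4.16, SE 0.63, adjusted p = 0.00029). *Cxcl12*, which retains blood cells in their niche, was 0.671 to 2.86 against 26.2 to 251 (log2 -5.24, SE 0.67, adjusted p = 9.5e-05), and *Cxcr4* was 42.8 to 127 against 1.28 to 27.9 (log2 3.47, SE 0.58, adjusted p = 0.00057). *Il34*, *Cxcl12* and *Cxcr4* did not overlap between the populations, and *Csf1* and *Csf1r* did. *Cx3cr1* was called (log2 3.13, SE 0.98, adjusted p = 0.020; 4.31 without both) but was at 0.0544, 0.0535 and 0.0542 without CD45- Cdh2-cKO replicate 1, 2 or 3, and its span overlaps other genes on both strands.

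In 4 pairs the ligand was the higher and the receptor the lower gene. *Osm*, the IL-6 family cytokine oncostatin M, was 66.0, 128 and 189 in CD45+ and 1.08, 2.44 and 58.8 in CD45- libraries, without overlap (log2 4.19, SE 1.05, adjusted p = 0.0063; 5.69 without both). Its receptor *Osmr* was 0.366, 1.24 and 2.45 against 30.0, 47.7 and 112 (log2 -5.73, SE 0.50, adjusted p = 1.4e-05). *Il1b* was 356 to 1531 against 10.4 to 349 (log2 4.19, SE 0.93, adjusted p = 0.0032; 5.43 without both), and its receptor *Il1r1* was 1.92 to 4.06 against 23.8 to 133 (log2 -4.13, SE 0.45, adjusted p = 3.5e-05). Differences were smaller for *Tgfb1* and *Tgfbr2* (log2 1.11, SE 0.30, and -0.74, SE 0.22) and for *Hgf* and *Met* (log2 1.75, SE 0.57, and -1.76, SE 0.42), with adjusted p values from 0.0047 to 0.024. Without both the log2 fold change of *Hgf* was 2.38. Its adjusted p was 0.0545, 0.0522 and 0.0601 without CD45+ wild type replicate 3, CD45+ Cdh2-cKO replicate 3 or CD45- Cdh2-cKO replicate 1. Both genes were higher in 6 pairs, which include *Cd274* with *Pdcd1*, and both were lower in 5. Among the last were *Angpt1* and *Angpt2* with *Tek*, the angiopoietin receptor of endothelium, which was 0 to 0.521 against 2.41 to 10.8 (log2 -6.00, SE 0.72, adjusted p = 6.2e-05), and *Hbegf* and *Areg* with *Egfr*, at 1.15 to 2.62 against 11.9 to 80.1 (log2 -4.45, SE 0.47, adjusted p = 2.9e-05). The last was *Il33* with *Il1rl1*, whose adjusted p of 0.020 was 0.0505, 0.05 and 0.0521 without CD45- wild type replicate 1, CD45+ Cdh2-cKO replicate 2 or CD45+ Cdh2-cKO replicate 3. Transcripts alone do not show that a ligand met its receptor.

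**Figure D5:**
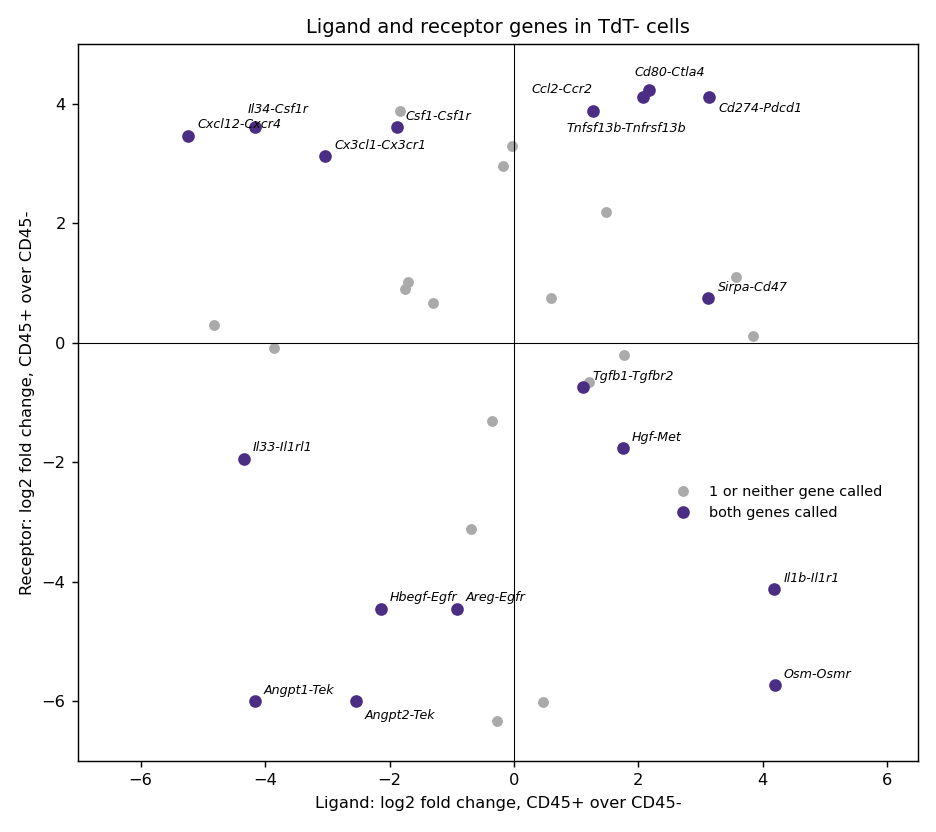
Log2 fold change of CD45+ over CD45- for the ligand (horizontal axis) and its receptor (vertical axis), 1 point per pair with both genes tested but for 1 pair that is left out, purple where both were called. Pairs at the upper left, such as Cxcl12-Cxcr4 at -5.24 and 3.47, have the ligand in CD45- and the receptor in CD45+ cells, and pairs at the lower right, such as Osm-Osmr at 4.19 and -5.73, the reverse.

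Most genes of glycolysis were not called, and the count for the cell cycle depended on the method and the libraries. Of 22 glycolysis and hypoxia genes 18 were not called (median -0.05), 1 was higher and 3 were lower, and without both libraries that stood apart 3 were higher and 6 lower. *Aldoa* was 3040 to 5649 against 3339 to 4069 (log2 0.22, SE 0.21, adjusted p = 0.42), and *Pkm* 2249 to 4014 against 2880 to 4353 (log2 -0.22, SE 0.21, adjusted p = 0.42). The hypoxia target *Car9*, a carbonic anhydrase of the cell surface, was lower at 18.1, 24.1 and 41.3 in CD45+ and 51.3, 137 and 185 in CD45- libraries, with no overlap (log2 -2.30, SE 0.25, adjusted p = 3.7e-05). *Adm*, adrenomedullin, was 5.15 to 44.9 against 42.2 to 226 (log2 -2.98, SE 0.57, adjusted p = 0.0013). *Hk3*, the hexokinase of myeloid cells, was the 1 higher member (log2 3.95, SE 1.2, adjusted p = 0.017, and 0.0522 without CD45- Cdh2-cKO replicate 2; 5.46 without both). Of 27 cell cycle genes 7 were higher (median 0.59), a share close to the 24.6% of all genes tested. Only 4 were higher without CD45+ wild type replicate 1, CD45- wild type replicate 2, CD45+ Cdh2-cKO replicate 1 or 2, or CD45- Cdh2-cKO replicate 3. Without both libraries that stood apart 21 were higher (median 0.87), where 27.5% of all genes were. With limma's voomWithQualityWeights, the method of the study, 21 were higher with all 12 libraries, where 4371 of all genes were. *Mki67*, carried by cycling cells, was 57.2 to 135 against 26.5 to 96.8 (log2 1.07, SE 0.32, adjusted p = 0.015), and *Pcna*, the replication clamp, was 82.5 to 131 against 34.1 to 99.8 (log2 0.95, SE 0.26, adjusted p = 0.0092). The lowest CD45+ and the highest CD45- values were again those of the 2 libraries. Of 8 tested mitochondrial genes 4 were lower, among them *mt-Cytb* at 4002 to 7608 against 5811 to 32416 (log2 -1.47, SE 0.41, adjusted p = 0.010), a difference in the same direction as that of the mitochondrial share of reads. Only *mt-Cytb* was lower with each library left out. It was the 1 call left without CD45+ wild type replicate 1, CD45- wild type replicate 2, or replicate 1 or 2 of either Cdh2-cKO population.

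The largest fold changes were taken by rule, 10 in each direction, among called genes without overlap and with a mean of at least 10. *Heyl*, a Notch target of pericytes and smooth muscle, was 0 to 0.884 in CD45+ and 7.96 to 86.8 in CD45- libraries (log2 -7.46, SE 0.80, adjusted p = 3.2e-05). *Slit3*, a guidance cue, was 0.109 to 0.471 against 13.6 to 80.3 (log2 -7.36, SE 0.56, adjusted p = 1.1e-05). *Lrrc15*, a surface protein of tumor fibroblasts, was 1.89 to 6.60 against 138 to 849 (log2 -7.06, SE 0.53, adjusted p = 1.1e-05), and *Sfrp4*, a Wnt antagonist, was 0.109 to 1.65 against 26.2 to 180 (log2 -7.04, SE 0.64, adjusted p = 1.5e-05; -7.7 without both). The others were *Srpx2*, *Cxcl13*, *Cyp4b1*, *Mfap4*, *Higd1b* and *Fxyd1*, at between -7.23 and -7.01. Fold changes against levels this low depend on the prior count of the fit.

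On the higher side the list was led by B cell genes of CD45+ wild type replicate 2. *Ms4a1*, encoding CD20, was 955 there and 0.427 to 1.68 in the other 5 CD45+ libraries, against 0.148 to 0.392 in CD45- libraries (log2 7.25, SE 2.48, adjusted p = 0.029; 2.35 without the 2 libraries), and was at 0.0806, 0.0882 and 0.0605 without CD45- wild type replicate 1, 2 or 3. *H2-Ob*, a class II gene of B cells, was 498 there and 9.71 to 20.6 elsewhere against 0 to 8.18 (log2 5.49, SE 1.19, adjusted p = 0.0029; 4.87 without both). *P2ry10*, a lysophospholipid receptor, *Cytip*, which controls leukocyte adhesion, and *Rgs1*, a G protein regulator, were high in all 6 CD45+ libraries. *Rgs1* was 1064, 1915 and 3721 against 11.8, 37.8 and 647 (log2 4.40, SE 1.02, adjusted p = 0.0043; 5.56 without both). *Cytip* was 128 to 542 against 1.27 to 83.1 (log2 4.50, SE 0.95, adjusted p = 0.0025; 5.54 without both). *Aqp9*, a water and glycerol channel, was 9.09 to 50.5 against 0.235 to 4.76 (log2 4.50, SE 0.69, adjusted p = 0.00033). *Cd2*, *Hvcn1*, *Lyz1* and *Gm8369* completed the list, and *Lyz1* is a near copy of *Lyz2*. In CD45+ wild type replicate 2 *Hvcn1* was 268, against 23.5 to 46.2 in the other 5 CD45+ libraries. *Gm8369* was 228 in that library and 1.84 to 4.03 in the other 5 (log2 4.40, SE 1.29, adjusted p = 0.015; 2.00 without both).

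The comparison was also made within each genotype. In wild type 954 genes (6.62%) were higher and 2190 (15.2%) lower, and in Cdh2-cKO mice 2639 (18.3%) and 2962 (20.5%). Of the 3144 and 5601 calls 2655 were shared with the same direction, 84.4% of the wild type and 47.4% of the Cdh2-cKO calls. Both libraries that stood apart were wild type, and the wild type calls came to 5926 without them, to 5021 without CD45- wild type replicate 3 alone, and to 1912 and 1779 without CD45- wild type replicate 1 or 2. A test of the difference between the genotypes (the interaction term) called 0 of 14418 genes (0.0%), with 892 at an unadjusted p under 0.05 and a lowest adjusted p of 0.715, while DESeq2 called 2 and voom 0. The gene with the smallest p, *Calcb*, which encodes a calcitonin gene-related peptide, had log2 fold changes of -1.97 in wild type and 4.72 in Cdh2-cKO mice (difference 6.70, SE 1.05, adjusted p = 0.715). *Nlrp10*, *Pgam2*, *Fabp5* and *Phactr2* came next, each with an adjusted p of 0.779. The log2 fold change of *Col1a1* was -6.89 in wild type and -6.17 in Cdh2-cKO mice, and *Ptprc* was higher by 2.93 (SE 1.11, adjusted p = 0.081) and 5.49 (SE 1.25, adjusted p = 0.0064).

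Last, the CD45 difference was compared between TdT- and TdT+ cells in a fit of all 22 libraries. Within TdT+ cells 3411 of 15043 genes (22.7%) were higher and 4054 (26.9%) lower in the CD45+ population. The test of the difference between the TdT- and TdT+ contrasts called 1 gene (0.00665%), with 1435 at an unadjusted p under 0.05, and voom called 3. It called 2 genes without either CD45+ wild type replicate 2 or CD45- wild type replicate 3. That gene was *Mrps34* (chr17:24895116-24897502, plus strand), which encodes a protein of the mitochondrial ribosome. In TdT- cells it was 4.43, 5.86 and 10.9 in CD45+ and 0.261, 0.600 and 1.77 in CD45- libraries, with no overlap. The log2 fold change was 3.09 larger in TdT- than in TdT+ cells (SE 0.41, adjusted p = 0.0097), where it was 0.13. The span of *Mrps34* lies within that of *Mapk8ip3* on the other strand, and whether the counting used strand is not given in the sources used here, so its reads and those of its partner may not be separable. Without both of those libraries, 112 genes differed, 105 with the larger value in TdT- and 7 in TdT+ cells. *Cdh2* itself was lower in CD45+ cells in both compartments, with a log2 fold change of -3.22 in TdT- and -4.65 in TdT+ cells, a difference that was not called (adjusted p = 0.58). The TdT+ value averages both genotypes. In the Cdh2-cKO mice the TdT+ cells are those in which the recombinase has acted, and *Cdh2* is the gene to be deleted.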

How the data were processed

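RNA from sorted stromal cells (SMARTer amplification of 10 ng) had been sequenced by the authors, aligned with STAR 2.0.4b to GRCm38 (Ensembl release 76) and counted on genes with Subread featureCounts, uniquely aligned unambiguous reads only. Whole-number counts, CPM and RPKM were deposited per library. The counts were used, and the CPM and RPKM were checked to follow from them. Symbols came from GENCODE M21 (40340 of 41388 identifiers matched). After removal of 355 rRNA genes and of genes that exceeded 1 CPM in fewer than 2 libraries, edgeR 4.0.16 (R 4.3.3) fitted genotype and CD45 status with TMM factors and the quasi-likelihood test, and the SE was the absolute log2 fold change over the square root of F. Named genes were, by rule, up to 4 called members of each list with the highest mean level, up to 3 exceptions, the 10 largest changes in each direction without overlap and with a mean of at least 10 normalized CPM, the ligand and receptor pairs, and the genes with the smallest p for the interaction and TdT difference. *Ackr1*, *Ackr2*, *Ackr4*, *Cd37*, *Epcam*, *Hk3*, *Inpp5d*, *Itga9*, *Spi1*, *Tead2* and *Vav1*, and genes given as not tested, were named after their values were seen. The libraries and gene lists were chosen with earlier results of these data known. limma 3.58.1 (voomWithQualityWeights, the study's method), DESeq2 1.42.0, other scalings and filters, and omissions of libraries were alternatives. The edgeR tests of the CD45 contrast and of its difference between genotypes were tried on simulated counts, and the other tests were not. Total counts of 16594228 to 20350177 give a floor of 3 counts, which covers counting error only. Same-numbered libraries were not treated as pairs. Results for some genes are not reported here.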

Additional observations from a re-analysis of the deposited data

Results flagged for a closer look

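Among 6 libraries of a population, a library was singled out where its gap to the nearest other exceeded Dixon's 95% critical share of the whole range, which chance alone gives in about 1 in 20 groups. This held for 22 of 84 summed gene lists and 102 of 456 single genes by population. Of the latter, CD45+ wild type replicate 2 accounted for 27 highest and 26 lowest values, CD45- wild type replicate 3 for 33 highest and 7 lowest, and the other libraries for 9.

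All values that follow are summed normalized CPM. CD45+ wild type replicate 2 was highest of its population for T cell genes (4869, next 192.5), NK and cytotoxic genes (3451, next 265.6), B cell genes (6850, next 51.4), T cell checkpoint receptors (1618, next 301) and sex-linked genes (420.5, next 166.6). It was lowest for macrophage genes (12388, next 51417), Fc and complement receptors (5879), complement components (2414), lysosomal genes (24305), cell cycle genes (1175) and erythroid and platelet genes (309.1). CD45- wild type replicate 3 was highest of its population for MHC class II (39538, next 2734), lysosomal genes (35592), chemokine receptors (2577), pattern recognition genes (2224), hematopoietic transcription factors (1128), checkpoint ligands (1038), dendritic cell genes (265) and NK and cytotoxic genes (119.9). It was lowest for basement membrane genes (632.4, next 1944) and Schwann cell genes (73.19, next 146.5). CD45+ Cdh2-cKO replicate 3 was highest for pan-leukocyte genes (32715, next 27715). On the principal components, CD45- wild type replicate 3 lay at -2.002 on the first and CD45+ wild type replicate 2 at -137.2 on the second.

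*Mrps34* was the 1 gene whose CD45 difference was called as unlike between TdT- and TdT+ cells, by 3.09 on the log2 scale.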

How the results depend on the processing

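Of 228 genes examined singly 213 were called, and 155 of these kept direction and call in each of the 23 alternatives that gave them a value, 12 of which left out 1 library. DESeq2 gave a value for 171 of the 213 and the stricter filter for 212. A fold threshold of 2 on the log2 scale left 1181 higher and 2139 lower genes. Counts in the other alternatives stayed within 1.5 times of 3544 and 3540, among them voom (4371 and 4497) and DESeq2 (3271 and 3940, with 475 adjusted p not given). With RLE factors 3270 genes were higher and 3737 lower. Wild type calls were 3144, 5619 with voom, 5926 without both libraries that stood apart, and 1779 to 5021 with 1 library left out. The interaction with genotype gave 2 genes with DESeq2. The TdT- minus TdT+ difference gave 3 genes with voom, 112 without both libraries and 1 to 2 with 1 left out. With the replicate block 3105 genes were higher and 3382 lower, and 16 of the 213 calls were lost. Correlations of same-numbered libraries lay between -0.126 and 0.066, and no label ties the numbers to a mouse. The log2 fold change of *Fn1* was 0.20, and with 1 library left out between -0.021 (without CD45+ wild type replicate 1) and 0.39. That of *Tcf7*, a T cell factor that was not called, was 1.23 with all libraries but -2.14 with voom, -1.41 with the replicate block, -2.16 without both libraries, -2.44 with voom and without both, -1.88 without the 4 libraries holding *Ddx3y*, and between -2.03 (without CD45+ wild type replicate 2) and 2.12 with 1 library left out. The cause of these changes was not tested.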
